A study of Mus musculus with 12 samples.

Results

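The 10 genes described here are cerebellar granule cell genes and the hindbrain patterning genes that go with them, Gabra6, Cbln1, Cbln3, Fat2, Neurod1, Zic1, Zic2, Barhl1, Barhl2 and En2, out of 55487 genes in the table of counts. They were found in the table by their gene symbols. They had been chosen because their levels were low in the KO brain libraries, so their KO and WT brain values are given as a description and carry no test.

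The study sequenced RNA of liver and brain from 6 mice. Mice A, C and F lacked Mettl5 (KO) and mice B, D and E were labelled WT, and the question of the study for these tissues is how gene expression differs when METTL5, the enzyme that adds N6-methyladenosine to 18S rRNA, is absent. The KO mice carried a deletion of exon 2 in the whole body, made from a floxed allele with a CMV-cre line. The ES cells came from a cross of C57BL/6 with another strain, and the line was later crossed back to C57BL/6. The labels name no agent given to the mice and give no age, sex or litter for a single mouse. The labels call the controls WT, but the paper's plots of liver and brain RNA-seq compare knockout with heterozygous mice. Its supplement also names heterozygous mice as those used for RNA-seq, while the title of the matching data table says wild type. WT here means the libraries labelled so, and these control mice may be heterozygous. The labels speak of organs and do not say how each brain was cut.

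Granule cells are the most numerous neurons of the cerebellum, and they are glutamatergic cells whose parallel fibres contact the dendrites of Purkinje cells. They arise from the rhombic lip, a strip of progenitors at the edge of the hindbrain, under transcription factors of the bHLH, zinc finger and homeobox families. Mature granule cells hold a GABA-A receptor subunit that few other neurons make, and they secrete cerebellins, which hold their synapses with Purkinje cells together.

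The members lie on 6 chromosomes of mm10 (GRCm38). Gabra6 (ENSMUSG00000020428.13) spans chr11:42306437-42321072 on the minus strand, and Fat2 lies on the same chromosome at chr11:55250609-55336564, also on the minus strand. Cbln3 lies at chr14:55878913-55884392 on the minus strand and Zic2 at chr14:122475435-122479852 on the plus strand. Neurod1 at chr2:79452521-79456751 and Barhl1 at chr2:28907679-28916668 are both on the minus strand of chromosome 2, which also holds Mettl5, and Neurod1 lies 9.57 Mb from Mettl5. En2 lies at chr5:28165694-28172166 on the plus strand and Barhl2 at chr5:106452523-106458166 on the minus strand. Cbln1 at chr8:87468405-87472609 and Zic1 at chr9:91358058-91365810 are on the minus strand. Neurod1 shared 201 exonic bases, 7.37% of its exons, with Cerkl on the same strand, and Zic1 shared 60 exonic bases with Zic4 on the opposite strand, which stranded counting keeps apart.

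Promoter windows of RefSeq (GRCm38.p6), from 250 bases before to 50 bases after a start site, were found for 7 of the 10 members, with 2 windows for Barhl1, and not for En2, Cbln1 or Zic2. These windows are shown for 4 genes because they stand for the receptor subunit, a cerebellin, the bHLH factor and a homeobox factor among the members, and because the members moved together over the libraries. They are written 5′ to 3′ on the strand of the gene, which is the minus strand for each, and capitals mark the letters of a motif that was searched. Of the 2 Barhl1 windows, the one at the outer start site is printed and the one at chr2:28912446-28912745 is not.
Gabra6, chr11:42321023-42321322: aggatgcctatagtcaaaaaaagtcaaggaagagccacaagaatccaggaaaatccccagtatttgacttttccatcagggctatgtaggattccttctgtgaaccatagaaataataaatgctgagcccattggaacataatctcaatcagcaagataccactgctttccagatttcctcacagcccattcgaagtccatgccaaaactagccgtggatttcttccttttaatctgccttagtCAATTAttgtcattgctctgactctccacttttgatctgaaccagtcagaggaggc
Cbln3, chr14:55884207-55884506: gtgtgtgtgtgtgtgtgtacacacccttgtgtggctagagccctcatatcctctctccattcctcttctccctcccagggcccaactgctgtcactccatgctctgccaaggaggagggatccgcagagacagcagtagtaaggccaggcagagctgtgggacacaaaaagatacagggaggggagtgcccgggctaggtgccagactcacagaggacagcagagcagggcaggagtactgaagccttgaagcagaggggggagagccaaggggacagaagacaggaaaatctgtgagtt
Neurod1, chr2:79456587-79456886: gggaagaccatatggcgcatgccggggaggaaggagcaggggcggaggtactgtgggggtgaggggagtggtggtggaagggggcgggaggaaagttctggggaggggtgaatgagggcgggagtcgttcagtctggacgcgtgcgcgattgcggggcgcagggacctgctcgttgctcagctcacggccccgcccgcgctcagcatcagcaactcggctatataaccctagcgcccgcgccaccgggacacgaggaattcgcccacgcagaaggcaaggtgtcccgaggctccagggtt
Barhl1, chr2:28916619-28916918: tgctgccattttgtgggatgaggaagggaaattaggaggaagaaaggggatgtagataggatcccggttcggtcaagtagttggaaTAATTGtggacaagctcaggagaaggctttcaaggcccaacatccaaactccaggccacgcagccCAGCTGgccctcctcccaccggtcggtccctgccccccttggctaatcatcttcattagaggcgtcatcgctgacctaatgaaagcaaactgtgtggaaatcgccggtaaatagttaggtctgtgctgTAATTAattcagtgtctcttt

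The motifs were searched on both strands. The E-box CAGATG, of the kind that NEUROD1 and ATOH1 bind, was in none of the 8 member windows and in 17.2% of the 32851 mouse windows. The E-box CAGCTG was in both Barhl1 windows and in 16.3% of all windows, and CAGCAGG, the core of the ZIC site, was in the Fat2 window and in 10.5% of all. TAATTG, a homeobox core, was in both Barhl1 windows and in the Gabra6 window, where it lies on the opposite strand and starts 6 bases before the start site, and it was in 8.0% of all windows. TAATTA, which differs from it in the last letter alone, was in 1 Barhl1 window and in 5.29% of all, and TATAAA was in no member window and in 13.6% of all. A match is a description of letters and no binding site. The member windows had a median GC content of 55.5%, against 52.7% over all windows, and ran from 42.0% in Gabra6 to 73.7% in Barhl2.

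The brain libraries held 14403309 to 18365114 counts and the liver libraries 16145754 to 21623180. Mettl5, the targeted gene, had 9.09, 5.87 and 5.02 CPM (counts scaled by library size and TMM factor) in the WT brains B, D and E, and 3.33, 3.96 and 3.82 CPM in the KO brains A, C and F, and these counts per gene do not show which exons they come from. Libraries E and F, 1 of each genotype, held next to no Y-linked transcripts. KO brain A was the lowest KO brain for every member, far below the others for all but Barhl1, where KO brain F was close to it, and the members' fold changes and most list medians are also given without it. Mitochondrial rRNA took 31.6% of the counts in KO brain A, 21.4% in C and 22.1% in F, against 7.63% to 17.7% in the WT brains. Pan-neuronal markers were at 4641 to 5216 summed CPM in KO and 4590 to 5302 in WT, and 1 of these 10 genes had every KO brain below every WT brain. The label brain gives no region, and granule cell, Purkinje cell, cortex, thalamus and olfactory bulb markers were all detected.

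Every member was lower in each KO brain than in each WT brain. The 10 KO means lay between 27.2% (Barhl2) and 41.8% (Zic1) of the WT means. Their log2 fold changes had a median of -1.62, with a range from -1.87 to -1.26, and it was -1.25 without KO brain A, whereas the median over all 17188 genes tested was -0.0016. In a bulk sample, fewer granule cells and less RNA per granule cell cannot be told apart. Over all genes, 7.94% had every KO brain below every WT brain and 8.41% every KO brain above, and these shares are given beside the members' 10 of 10 as a background only, since the members were selected on these values. With edgeR's quasi-likelihood test and Benjamini-Hochberg adjustment, 0.0640% of the genes tested passed an adjusted p under 0.1, which were 11 genes, all higher in KO, and 0 of the members were among them. At an unadjusted p under 0.05 the test passed 1885 genes, 8 members included, and DESeq2 passed 0.840% of its genes, including Barhl2 and Zic1; nothing is read from these counts of members, which the choice of the members used.

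**Figure D1:**
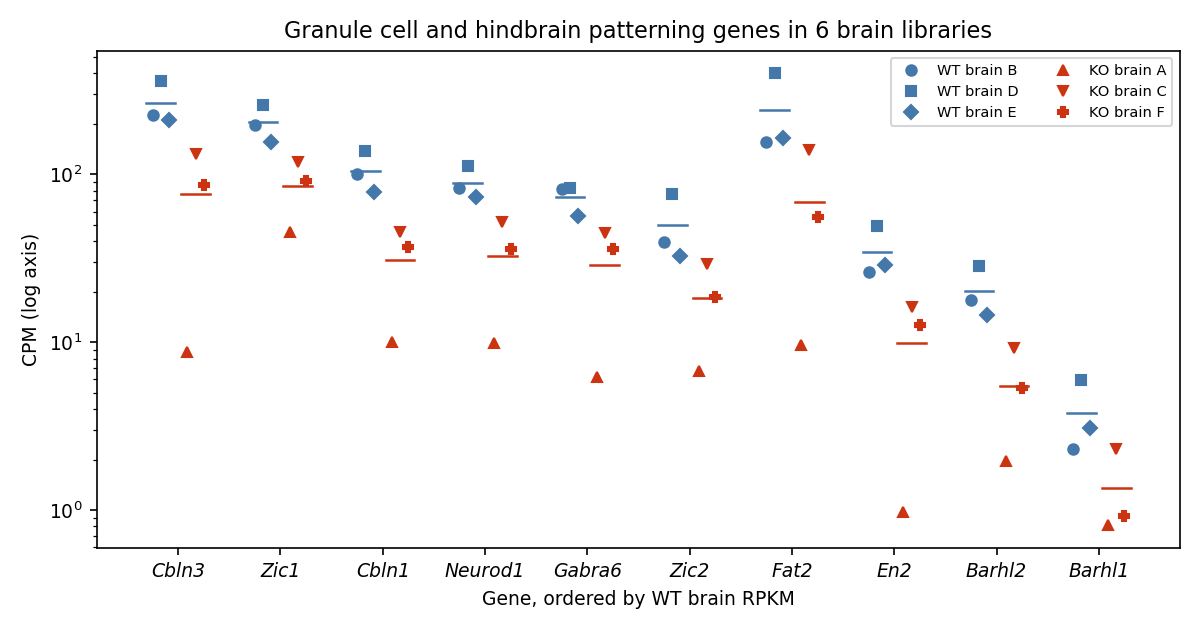
CPM on a log axis for each of the 10 genes in the 3 WT (blue) and 3 KO (red) brain libraries, with a horizontal bar for the group mean; genes are ordered by their WT RPKM. WT brain D is the highest and KO brain A the lowest library for each gene, and the 2 groups do not overlap, although Barhl1 comes close with 2.30 CPM in KO brain C and 2.32 in WT brain B.

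Gabra6 encodes the alpha 6 subunit of the GABA-A receptor, which in granule cells takes up the inhibition that Golgi cells give. Its level was 82.3, 82.8 and 56.1 CPM in WT brains B, D and E, and 6.18, 44.5 and 35.9 CPM in KO brains A, C and F. The means were 73.7 ± 15.3 CPM in WT and 28.9 ± 20.1 in KO (SD, n = 3), and the log2 fold change was -1.35 (SE 0.56). The WT brains were closest to each other here, with a coefficient of variation of 20.7%, and KO brain A alone was below 10 CPM. Without it, the log2 fold change was -0.88 (SE 0.21), the smallest of the 10.

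Cbln1 and Cbln3 encode cerebellins, secreted proteins of the C1q family that assemble with each other, and Cbln1 is the ligand that holds parallel fibre synapses together. Cbln1 was at 100.4, 137 and 78.2 CPM in the WT brains B, D and E and at 9.998, 45.7 and 37.1 CPM in the KO brains A, C and F. Cbln3 was at 227, 362 and 211 CPM in WT and at 8.78, 132 and 86.8 CPM in KO, in the same order of libraries. Both were lowest in KO brain A by a wide margin, and their highest KO value was 58.4% (Cbln1) and 62.7% (Cbln3) of their lowest WT value, among the widest gaps of the 10. Mean Cbln1 was 105 ± 29.8 CPM in WT and 30.9 ± 18.6 in KO (SD, n = 3), and the log2 fold change was -1.76 (SE 0.48) and -1.35 without KO brain A. Mean Cbln3 was 267 ± 82.9 CPM in WT and 76.0 ± 62.5 in KO, with a log2 fold change of -1.81 (SE 0.78), or -1.28 without KO brain A. Per length, Cbln3 exceeded Cbln1 by 1.41 to 1.68 times in the 3 WT brains and by 1.81 and 1.46 times in KO brains C and F, whereas in KO brain A the ratio was 0.55, so Cbln3 was below Cbln1 in that library only.

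Fat2 encodes a giant atypical cadherin of the granule cell surface. Its level was 157, 399.7 and 165 CPM in the WT brains B, D and E, and 9.67, 139.8 and 55.6 CPM in the KO brains A, C and F. The WT and KO means were 240.3 ± 138 and 68.3 ± 66.0 CPM (SD, n = 3), and the log2 fold change was -1.81 (SE 0.83) and -1.30 (SE 0.48) without KO brain A, -1.23 without WT brain D and -2.88 without KO brain C. It varied most of the 10 within both groups, with coefficients of variation of 57.5% in WT and 96.5% in KO, and WT brain D held the highest level, well above the other WT brains.

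Neurod1 encodes a bHLH factor that granule cells need to survive and differentiate. It was at 83.4, 112 and 73.1 CPM in WT brains B, D and E and at 9.84, 51.7 and 35.99 CPM in KO brains A, C and F. The means of 89.4 ± 20.02 and 32.5 ± 21.2 CPM (SD, n = 3) gave a log2 fold change of -1.46 (SE 0.49), and -1.03 without KO brain A. Its course over the libraries followed that of Gabra6, with a ratio of the 2 genes per length of 0.92 to 1.23 in WT and 0.91 to 1.45 in KO.

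Zic1 and Zic2 encode zinc finger factors that granule cell progenitors and granule cells share, and both are also made in other dorsal parts of the brain. Zic1 was at 198, 259 and 155 CPM in the WT brains B, D and E and at 45.2, 119 and 91.4 CPM in the KO brains A, C and F. Zic2 was at 39.6, 76.6 and 32.6 CPM in WT and at 6.75, 29.3 and 18.6 CPM in KO, in the same order. Zic1 had the smallest log2 fold change, -1.26 (SE 0.34), with means of 204 ± 52.4 and 85.1 ± 37.2 CPM (SD, n = 3), and Zic2 had -1.44 (SE 0.50). Without KO brain A these were -0.96 and -1.05. In KO brain A, Zic1 still held 22.2% of its WT mean and Zic2 held 13.6%. The ratio of Zic1 to Zic2 per length was 1.71 to 2.52 in WT and 2.05 to 3.39 in KO, so the ranges overlap.

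Barhl1 and Barhl2 encode homeobox factors of the rhombic lip and its descendants. Barhl1, which was also the lowest member per length, was at 2.32, 5.92 and 3.06 CPM in the WT brains B, D and E and 0.813, 2.30 and 0.923 CPM in the KO brains A, C and F, which rest on 36, 118 and 61 counts in WT and 10, 32 and 14 in KO. Its highest KO value was 99.2% of its lowest WT value, so the groups barely part. Barhl2 was at 17.9, 28.3 and 14.5 CPM in WT and at 1.95, 9.21 and 5.34 in KO, and it had the largest log2 fold change of the 10, -1.87 (SE 0.47), which exceeds those of Fat2 and Cbln3 by less than its SE, and it was -1.48 (SE 0.33) without KO brain A. Barhl1 had a log2 fold change of -1.48 (SE 0.49), or -1.24 (SE 0.53) without KO brain A.

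En2 encodes the engrailed factor that patterns the midbrain and the cerebellum and stays on in granule cells. It was at 26.0, 48.97 and 28.8 CPM in WT brains B, D and E and at 0.975, 16.2 and 12.7 CPM in KO brains A, C and F. KO brain A held 12 counts of En2, 2.82% of the WT mean and the lowest share of any member. The means were 34.6 ± 12.5 and 9.96 ± 7.97 CPM (SD, n = 3), and the log2 fold change was -1.79 (SE 0.69) and -1.26 without KO brain A.

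The order of the 6 brains was shared by 7 members, and the other 3 differed in the lowest WT library. WT brain D was the highest WT library and KO brain C the highest KO library for 10 of 10, and KO brain A was the lowest for 10 of 10. The lowest WT library was E for 7 members and B for 3. As a share of the WT mean, the members ran from 2.82% to 22.2% (median 9.57%) in KO brain A, from 43.4% to 61.1% (median 58.0%) in C and from 23.1% to 48.7% (median 36%) in F. KO brain C exceeded KO brain A by 2.63 to 16.6 times, while its own value was 58.4% to 99.2% of the lowest WT brain, so on a ratio scale KO brain A was further from KO brain C than C was from the nearest WT brain for 10 of 10 members, and KO brain F for 5 of 10. The members that kept least in KO brain A were En2, Cbln3 (3.29%) and Fat2 (4.02%), and those that kept most were Zic1, Barhl1 (21.6%) and Zic2. Among KO brain C and KO brain F alone, members were at 35.9% to 54.5% of the WT mean.

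**Figure D2:**
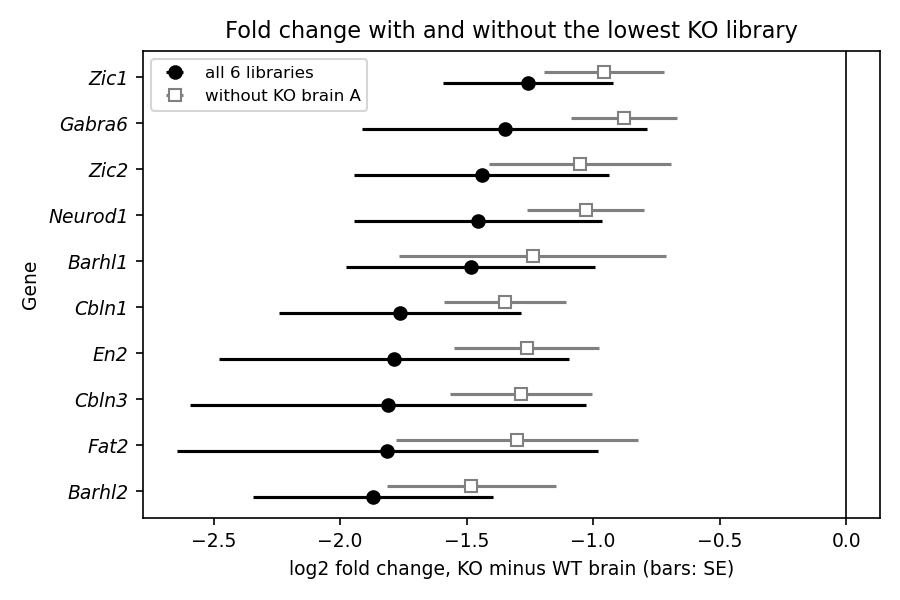
The log2 fold change of KO against WT brain for each of the 10 genes, from all 6 libraries (black circles) and without KO brain A (open squares), with bars of 1 SE from edgeR. Each value is below 0, from -1.87 to -1.26 with all libraries and from -1.48 to -0.88 without KO brain A, and every circle lies further from 0 than its square.

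Compared per length, as RPKM (CPM divided by the exon length in kilobases), the order of the members in WT brain was Cbln3 at 54.8 ± 17.04 RPKM, Zic1 at 35.8 ± 9.21, Cbln1 at 34.7 ± 9.81, Neurod1 at 32.8 ± 7.34, Gabra6 at 29.6 ± 6.14, Zic2 at 17.2 ± 8.21, Fat2 at 16.5 ± 9.50, En2 at 9.78 ± 3.54, Barhl2 at 8.75 ± 3.10 and Barhl1 at 0.965 ± 0.487 (SD, n = 3). Neighbours in this order had overlapping ranges over the WT brains except Barhl2 and Barhl1. Cbln3 was first and Zic1 second in each WT brain, and Barhl1 was last in all 6 brains. Cbln3 was also first in KO brains C and F, but in KO brain A it was sixth and Zic1 was first, at 7.94 RPKM against 1.80 for Cbln3. Fat2, with 14528 exonic bases the longest member, was seventh per length in the WT means.

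Across the 6 brain libraries, the 45 pairs of members had Pearson correlations of log2 CPM from 0.774 (Gabra6 with Barhl1) to 0.998, with a median of 0.976. The genotypes form separate groups, so the correlations of the deviations from the group means are the plainer description, and these ran from 0.520 to 0.996 with a median of 0.963. All pairs share the same 6 libraries and the low KO brain A, and no p is given. Of the other 17178 genes tested, 333 (1.94%) had a correlation of at least 0.95 with the mean course of the members in log2 CPM. This measure keeps the difference between the genotypes, on which the members were chosen. The most alike were Pcp2 (0.999), a Purkinje cell gene, Mybpc1 (0.998), Uncx, Pias4, Arhgef33, Atp2a3, Dao and Elmo3 (0.994), in this order. Pcp2 was at 43.0, 72.1 and 38.1 CPM in WT brains B, D and E and at 2.28, 23.3 and 14.04 CPM in KO brains A, C and F. This is the order of libraries that 7 of the members had.

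The members were next set beside the liver, an organ without granule cells. In the 6 livers, 9 of the 10 members had at most 5 counts in any library, and Neurod1 had a single count in all. Cbln3 was the exception, with 19, 8 and 26 counts in WT livers B, D and E and 31, 11 and 14 in KO livers A, C and F, and it was the one member that passed the filter on low counts there. Its liver log2 fold change was 0.10 (SE 0.56) with an edgeR adjusted p of 0.987, and the groups overlap. Between tissues, Cbln3, the one member that passed the filter in both, was higher in WT brain than in WT liver by 7.37 on the log2 scale (SE 0.37), and higher in KO brain than in KO liver by 5.46 (SE 1.21). These values use the brain levels the members were chosen on and are a description.

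Other genes of mature granule cells and their synapses were taken from a separate list. All 17 genes of this list were tested, 0 passed the edgeR test (13 at an unadjusted p under 0.05, and 4 by DESeq2 with adjustment), 8 had every KO brain below every WT brain, and the median log2 fold change was -0.79, or -0.56 without KO brain A. Chn2, a chimaerin of granule cells, was at 230.4 ± 72.8 CPM in WT and 84.1 ± 45.5 in KO (log2 fold change -1.45, SE 0.40, edgeR adjusted p 0.355, and -1.12 without KO brain A). Cadps2, a vesicle priming factor of parallel fibres, was steady in WT at 204, 208 and 204 CPM and was at 102, 124 and 127 CPM in KO brains A, C and F, so it did not follow the low level of KO brain A (-0.80, SE 0.13, edgeR adjusted p 0.172). Slc17a7, the vesicular glutamate transporter that forebrain neurons also use, had -0.15 (SE 0.21) with overlapping groups. Summed over the list, the level was 1588 to 2161 CPM in WT and 858 to 1471 in KO, and the members' sum was 817 to 1512 CPM in WT and 100.1, 590 and 380.4 CPM in KO brains A, C and F.

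The paralogs and partners of the members gave mixed values. Of the 16 genes for the granule cell lineage and the other Zic genes, 14 were tested, 0 passed the edgeR test (3 at an unadjusted p under 0.05, and 1, Zic4, by DESeq2), and the median log2 fold change was -0.12, or -0.07 without KO brain A, -0.30 without WT brain B, -0.32 without KO brain C and -0.05 without WT brain D. Zic4, which lies beside Zic1, had -1.03 (SE 0.27) and Zic5, which lies beside Zic2, -0.76 (SE 0.31); both were chosen after their values were seen. Among the 8 partners and paralogs of the cerebellins, 0 passed the edgeR test (2 at an unadjusted p under 0.05, and 1 by DESeq2) and the median was 0.15 (0.18 without KO brain A, 0.06 without WT brain D and 0.24 without WT brain E), and with total counts in place of TMM, a scaling that moved the median of all genes to -0.23, it was -0.07. Of 13 other GABA-A subunit genes, 12 were tested, 0 passed the edgeR test (5 at an unadjusted p under 0.05, and 0 by DESeq2) and the median was 0.42, or 0.30 without KO brain A, 0.21 without WT brain D, 0.27 without KO brain F and 0.19 with total counts in place of TMM. Of these 12 genes, 3 had every KO brain above every WT brain and 1 had every KO brain below. Gabrd, which pairs with the alpha 6 subunit in granule cells, was the latter gene (log2 fold change -0.48, SE 0.16, edgeR adjusted p 0.378; named after its values were seen). In the list of 12 mid-hindbrain patterning genes, 9 were tested, 0 passed the edgeR test (2 at an unadjusted p under 0.05, and 0 by DESeq2), and the median was -0.58, or -0.48 without KO brain A, but -0.02 without WT brain D and -1.31 without KO brain C. The list holds En1, the paralog of En2, which was at 4.01 ± 1.94 CPM in WT and 1.39 ± 1.77 in KO. En1 had no count in KO brain A, but 3.38 CPM in KO brain C against 1.93 in WT brain B, so the groups overlap. Its log2 fold change was -1.52 (SE 0.89, edgeR adjusted p 0.538), or -0.96 without KO brain A.

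**Figure D3:**
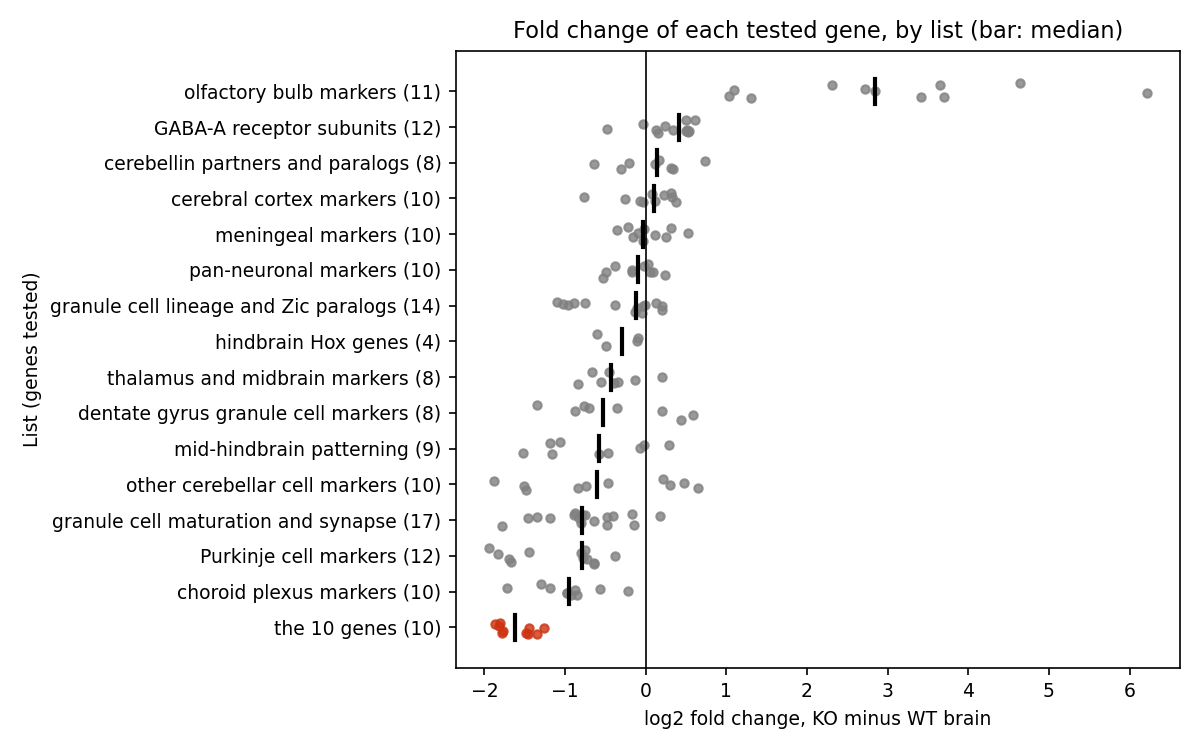
The log2 fold change of KO against WT brain for each tested gene (points, spread at random within a row), by list, with a bar at the list median and the number of genes tested in brackets. The 10 genes (red) were selected on this contrast and have a median of -1.62, the choroid plexus, Purkinje cell and granule cell maturation lists have medians from -0.95 to -0.79, and the olfactory bulb list lies to the right at 2.85.

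Markers of other cell types and regions were read for the same libraries. Of the 12 Purkinje cell markers, 0 passed the edgeR test (11 at an unadjusted p under 0.05, and 7 by DESeq2), 11 had every KO brain below every WT brain, the median was -0.79 (-0.63 without KO brain A and -1.32 without KO brain C), with single genes from -1.94 (Pcp2) to -0.38, and their sum was 2197 to 2680 CPM in WT and 1093 to 1603 in KO. Car8, a Purkinje cell marker, was at 256 ± 40.8 CPM in WT and 78.9 ± 42.8 in KO (-1.70, SE 0.42, edgeR adjusted p 0.320, and -1.31 without KO brain A), and Itpr1, the IP3 receptor of these cells, at 1373 ± 216 and 817 ± 193. Of the 10 markers of other cerebellar cells, 0 passed the edgeR test (5 at an unadjusted p under 0.05, and 1 by DESeq2) and the median was -0.61, or -0.43 without KO brain A and 0.01 without WT brain D. The 16 hindbrain Hox genes, which mark the hindbrain behind the cerebellum and the spinal cord, were mostly too low to test (4 tested, 0 passed by edgeR, also at an unadjusted p under 0.05, or by DESeq2), and their summed level of 0.452 to 10.9 CPM in WT and 0.659 to 8.62 in KO overlapped, with the lowest values in WT brain E and KO brain F and 8.62 CPM in KO brain A, where the members were lowest. The median of the 4 tested Hox genes was -0.30, or -1.12 without KO brain A, and it changed sign without WT brain D (0.44) and without KO brain F (0.24).

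Olfactory bulb markers went the other way. Of 11 genes, 8 rose by the edgeR test (9 by DESeq2) and 10 had every KO brain above every WT brain, with a median of 2.85 (2.93 without KO brain A), and their sum was 26.3 to 32.5 CPM in WT and 101 to 128 in KO. Of the 8 genes, S100a5 held 3 counts or fewer in every WT brain and is given no fold. The others had log2 fold changes from 1.31 (Gng4) to 3.70 (Omp). The number of passing genes depends on the libraries: 6 passed without KO brain A, 3 without WT brain B, 4 without WT brain D and 2 without WT brain E. Without KO brain F 3 passed, with total counts in place of TMM also 3, and without KO brain C 7. Omp, the marker of olfactory sensory neurons, was at 0.865 ± 0.228 CPM in WT and 11.3 ± 3.25 in KO (3.70, SE 0.32, edgeR adjusted p 0.00674), and S100a5, of the same neurons, was at 0.0812 ± 0.1003 and 5.997 ± 0.737 CPM. The KO brains A, C and F, at 101, 128 and 108 CPM, lay within a narrow range for these markers, while their member sums ran from 100.1 to 590 CPM. Choroid plexus markers had a median of -0.95 (-0.90 without KO brain A), with 0 of 10 passing the edgeR test (7 at an unadjusted p under 0.05, and 4 by DESeq2), and their sum was 245 to 405 CPM in WT and 120 to 191 in KO, with Ttr, the transthyretin of the plexus, at 262 ± 75.6 and 133 ± 32.5 CPM. The medians were -0.03 for meningeal markers, -0.52 for dentate gyrus granule cell markers, 0.10 for cortex, -0.42 for thalamus and midbrain and -0.09 for pan-neuronal markers, with 0 genes passing the edgeR test in each (0, 3, 1, 2 and 2 at an unadjusted p under 0.05, and 0, 1, 0, 1 and 0 by DESeq2). Without WT brain E the dentate gyrus median was -0.23 and without WT brain D that of thalamus and midbrain was -0.27. The pan-neuronal median ran from -0.14 to -0.04 when a library was left out. Without KO brain A these medians were 0.11, -0.16, 0.18, -0.37 and -0.12, and the signs for meninges and cortex also turned under other settings. The part of other cell types or brain regions in the members' levels was not tested. With the mitochondrially encoded genes left out, the members' median log2 fold change was again -1.62, and with the Y-linked transcripts as a covariate it was also -1.62.

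**Figure D4:**
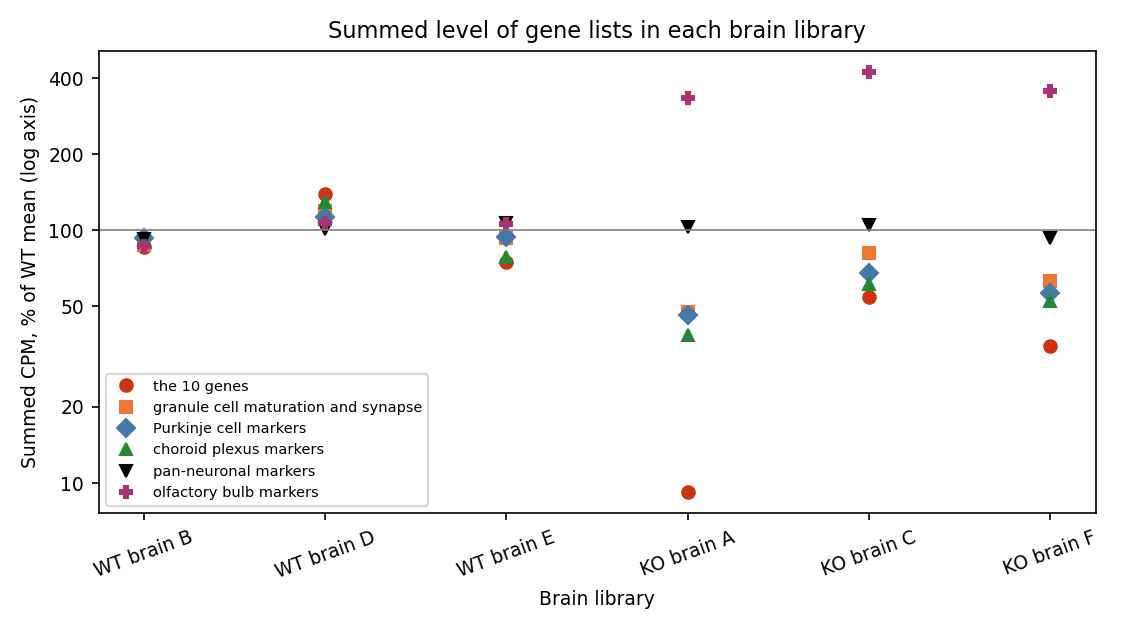
Summed CPM of 6 gene lists in each brain library as a percent of the list's WT mean, on a log axis with a line at 100%. The 10 genes (red circles) are at 9.21%, 54.2% and 34.98% in KO brains A, C and F, Purkinje cell and choroid plexus markers are between 38.6% and 67.7% there, pan-neuronal markers between 93.5% and 105%, and olfactory bulb markers between 333% and 423%.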

How the data were processed

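Total RNA libraries (SMARTer Stranded v2, single-end reads) were made by the authors. Per the labels and the submitters' processing notes, reads were handled with bcl2fastq, FastQC 0.11.5, Trimmomatic, STAR 2.7.3a on mm10 and featureCounts over exons, reverse stranded. The deposited table holds raw counts per gene, with no normalisation by the authors. Of its 55487 genes, 55141 were given a symbol and 21046 had no count; the 54349 genes shared with GENCODE M21 had the same start and end.

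Each tissue's 6 libraries were fitted with edgeR 4.0.16 (R 4.3.3; TMM, filterByExpr, robust quasi-likelihood F test, Benjamini-Hochberg adjustment over all genes tested, calls at 0.1). Brain and liver were compared within each genotype. The study used DESeq2 for its own comparison, and DESeq2 1.42.0 was run here as an alternative, as were no filter, other scalings, mitochondrial genes left out, a Y-linked covariate and each library left out. SE came from the F statistic, and log2 CPM used a prior count of 2. A group whose libraries all held 3 counts or fewer was read as at the floor, with no fold printed; this covers counting error only. The KO against WT brain fit was tested on simulated counts of 17188 genes with 200 changed by 2 on the log2 scale, of which 185 were recovered, with 28 false calls among 213. The changed genes were drawn from those above a minimum mean CPM, and each gene was drawn on its own. A shift shared by many genes of a library, as in KO brain A, was not simulated. The recovered share is therefore no measure of the power for the members. The letters pair the tissues of a mouse per the labels: the deviations of its liver and brain from their group means correlated at -0.0389 to 0.140 over 12574 genes. The study speaks of KO and control mice as pairs, but no label says which mice form one, so no fit was paired by genotype. P-values set the difference between groups against the spread between the mice within a group. The main brain against liver fits treat both tissues of a mouse as independent libraries.

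The members and the gene lists were chosen with earlier results of these data known, and the lists came from general knowledge. Named are the 10 members, Mettl5, the 8 other genes with the highest correlation with the members' mean course and, of each list, the 3 genes with the highest mean brain CPM and any called gene, with values printed for part of them; some listed genes are not reported here. Zic4, Zic5 and Gabrd fall outside this rule and were named after their values were seen. Promoters are from RefSeq, GRCm38.p6.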

Additional observations from a re-analysis of the deposited data

How the results depend on the processing

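The members' median log2 fold change of -1.62 ran from -2.13 (without KO brain C) to -1.25 (without KO brain A) when a library was left out and from -1.83 to -1.62 otherwise. Total counts in place of TMM moved the median of all genes to -0.23. The 11 brain calls became 1000 with no filter on low counts (497 higher, 503 lower), 267 with DESeq2 (135 higher, 132 lower) and 4 with total counts, and 2 to 23 when a library was left out: 6 without KO brain A, 3 without WT brain B, 23 (10 of them lower) without KO brain C, 4 without WT brain D, 2 without WT brain E and 5 without KO brain F. Member calls went from 0 to 3 with no filter and to 2 with DESeq2. In liver, edgeR called 0 of 14075 genes (1032 at an unadjusted p under 0.05), 443 with no filter, 171 with DESeq2 and 0 to 87 with a library left out (2 without KO liver C, 87 without WT liver D). Some list medians changed sign: cerebellin partners (-0.074) and cortex (-0.12) with total counts, Hox genes (0.44) without WT brain D and (0.24) without KO brain F, other cerebellar cells (0.011) and cortex (-0.058) without WT brain D, and meninges without KO brain A (0.11), WT brain D (0.16) or WT brain E (0.076). With a library left out these medians ran from -1.12 to 0.44 (Hox), -0.79 to 0.011 (other cerebellar cells), -0.11 to 0.16 (meninges) and -0.058 to 0.43 (cortex). The cause was not tested. With mouse as a replicate block, Cbln3 was higher in brain than in liver by 7.33 in WT and 4.93 in KO (log2), and 13588 genes differed between WT tissues (13861 without the block) and 13614 between KO tissues (13958). Barhl1 and, in KO brain A, En2 rest on few counts, which limits their precision.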
